A study of Mus musculus with 6 samples.

Results

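The 4 Hox clusters of the mouse were examined on bead arrays of whole testis, through every probe whose deposited gene symbol was Hoxa, Hoxb, Hoxc or Hoxd followed by a digit. This rule gave 56 of the 45281 probes on the array. They carried 40 of the 31508 symbols in the table, which were the 39 protein-coding Hox genes and the antisense transcript deposited as Hoxa11s (Hoxa11os in RefSeq). Per the labels, testes came from C57BL6J mice aged 8 weeks (the age field instead reads E12.5) of 3 H3f3b genotypes: WT/WT (WT), WT/- (HET) and -/- (KO). H3f3b encodes the replication-independent histone variant H3.3. The deleted allele was made by crossing a floxed H3f3b allele to Zp3Cre, a Cre active in the oocyte, so the loss was constitutive and not limited to 1 testicular cell type. Each genotype had 2 mice, 1 from each of 2 litters, and the RNA of 1 testis per mouse was hybridised to its own array.

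Hox genes encode homeodomain transcription factors that give cells their position along the body axis. They lie in 4 clusters in which gene order follows the order of expression from anterior to posterior, and genes at matching places (paralog groups 1 to 13) are related in sequence. In cells that do not use them the clusters are typically held silent by Polycomb complexes through methylation of histone H3, and Trithorax complexes oppose this. In the male tract, posterior Hoxa and Hoxd genes are known for patterning the epididymis and vas deferens. Hoxa4 is known in the mouse as a transcript of male germ cells.

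The table of RefSeq promoters used here held 23 of the 40 members, with neither Hoxa4 nor Hoxc9 among them, as 25 windows from 250 bases before to 50 bases after a gene start (GRCm38.p6). These windows held a median of 15.0 CpG dinucleotides (range 4 to 45), against 7.0 over all 32851 promoter windows, and their median ratio of observed to expected CpG was 0.657 against 0.384. The motif TATAAA, read on the gene's strand, was in 1 of the 25 windows (4.0%, against 8.32% of all windows), and CCAAT on either strand was in 15 (60.0% against 37.4%). The 100 bases before the start are shown for Hoxa5, Hoxd9 and Hoxd10, which were higher in KO testis, and for Hoxd8, a brightly expressed member that did not pass the test, with CpG dinucleotides in capitals.
Hoxa5, chr6:52204588-52204687, minus strand: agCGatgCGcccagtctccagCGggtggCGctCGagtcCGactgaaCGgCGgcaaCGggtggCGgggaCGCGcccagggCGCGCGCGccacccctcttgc
Hoxd8, chr2:74704515-74704614, plus strand: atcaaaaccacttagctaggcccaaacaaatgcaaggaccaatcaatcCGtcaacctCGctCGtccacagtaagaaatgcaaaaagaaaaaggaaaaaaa
Hoxd9, chr2:74697663-74697762, plus strand: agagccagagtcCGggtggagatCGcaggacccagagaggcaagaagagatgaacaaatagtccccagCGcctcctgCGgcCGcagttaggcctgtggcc
Hoxd10, chr2:74691791-74691890, plus strand: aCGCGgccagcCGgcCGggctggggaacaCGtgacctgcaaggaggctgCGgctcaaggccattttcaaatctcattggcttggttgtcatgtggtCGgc
Within these 100 bases Hoxa5 had 16 CpG dinucleotides, Hoxd10 had 7, Hoxd9 had 5 and Hoxd8 had 3. In the full windows the numbers were 29, 22, 20 and 6. Other tested members that did not pass ranged widely: Hoxa13 had 45, Hoxa6 26, Hoxd11 25 and 4, Hoxa7 9 and Hoxd4 4. A relation of CpG number to the KO differences was not tested. These are descriptions of the sequence, and the arrays carry no measurement at the promoters.

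The targeted gene followed the labelled genotypes. The H3f3b probe had a log2 normalized signal of 11.73 to 11.79 on the WT arrays and 10.96 to 11.10 on the HET arrays, and no KO array detected it (4.28 to 4.43). Germ cell transcripts were abundant, with Prm1, a protamine, at 15.46 ± 0.05 and Tnp1, a transition protein, at 14.41 ± 0.01 in WT (mean ± SD, n = 2 mice, as for all means below). A probe counted as detected on an array where its deposited detection p-value, set against negative-control beads, was under 0.05. The arrays detected between 43.7% and 47.1% of all probes, and the HET mouse of litter 2 had the lowest summed signal (15427284, against 17052222 to 17674449 on the others). Probes with a detection p-value in the middle of its range, which stand for background, had a median signal of 89.6 to 95.1, and the dimmest detected probe on each array had a signal of 98.3 to 105.3, so most Hox signals below lie close to background. Precision was limited by the number of arrays: 2 mice against 2 cannot go below p = 0.333 in an exact two-sided permutation test, and single probes were tested only in the model fitted across all probes.

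Most Hox genes were at background in the adult testis. In WT, 9 of 56 Hox probes (16.1%) were detected on both arrays, against 40.8% of all probes. In HET the number was 12 (21.4%, against 41.8% of all probes) and in KO 16 (28.6%, against 42.9%). Single arrays detected 12 to 13 Hox probes in WT (21.4% to 23.2%), 16 to 18 in HET (28.6% to 32.1%) and 17 to 20 in KO (30.4% to 35.7%). Of all probes, they detected 43.7% to 44.6% in WT, 44.9% to 45.7% in HET and 45.7% to 47.1% in KO. The WT arrays thus lay lowest for Hox probes and for all probes alike. The order of the genotypes depended on the rule. On at least 1 array, 16 Hox probes were detected in WT, 22 in HET and 21 in KO. With a detection p-value under 0.01 on both arrays the numbers were 8, 8 and 11. Both of these rules are given without the share over all probes. Detection on all 6 arrays was found for 7 of the 39 protein-coding genes: Hoxa4, Hoxa13, Hoxb5, Hoxc6, Hoxc9, Hoxd8 and Hoxd9. No array detected any probe of 17 of them, among them Hoxa10 and Hoxa11, both known in the mouse for testicular descent and the male ducts.

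Detected members were unevenly spread over the clusters, a difference that was not tested. A probe was tested only if some genotype had it detected on both of its arrays, a filter that 16 Hox probes on 15 genes met. These were 1 of 8 genes of paralog groups 1 to 3 (Hoxb3), 8 of 15 genes of groups 4 to 8, and 6 of 16 genes of groups 9 to 13. By cluster, 6 of 11 Hoxd probes (chromosome 2) met the filter, 5 of 20 Hoxa probes (chromosome 6), 3 of 10 Hoxc probes (chromosome 15) and 2 of 15 Hoxb probes (chromosome 11). The other 40 Hox probes had means over all arrays of 4.26 to 4.65, of which 30 were detected on no array and 10 on 1 or 2. Probes of a gene did not always match: Hoxa13 had 1 probe detected on 6 arrays and 2 detected on none, Hoxb3 had 1 of 4 probes past the filter, and Hoxc10 had 1 of 2.

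**Figure D1:**
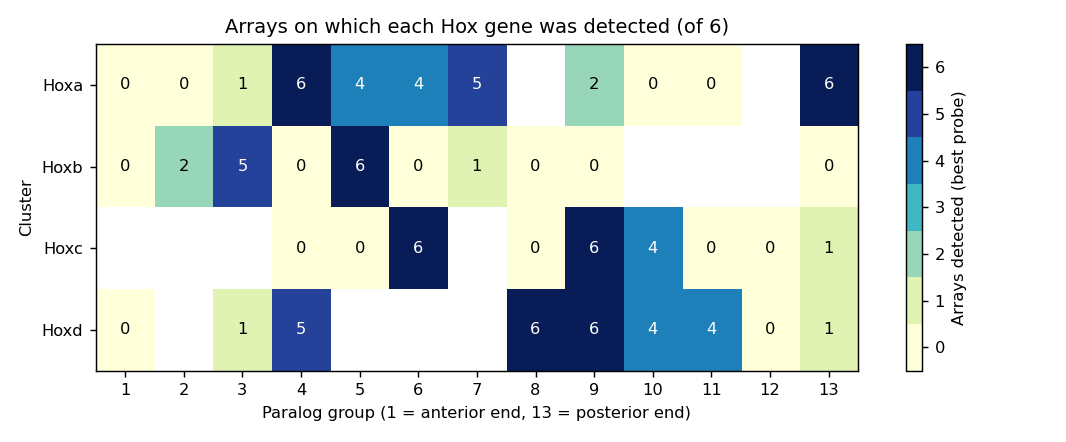
Number of arrays (of 6) on which the most often detected probe of each of the 39 protein-coding Hox genes was detected, by cluster (rows) and paralog group (columns); white marks a gene the mouse does not have. The 7 genes detected on all 6 arrays lie in groups 4 to 13, and no gene of groups 1 to 3 reaches 6.

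Hoxa4 and Hoxd8 stood far above the other members in every genotype. Hoxa4 had a mean level over all arrays of 10.08, above 87.9% of the tested probes, and Hoxd8 had 9.92, above 86.8%. Hoxc9 followed at 7.51 (above 62.0%) and Hoxc6 at 6.24 (above 43.1%). The other 12 tested Hox probes lay between 4.75 and 5.71, above 7.73% to 33.8% of the tested probes. These ranks are of signal, which also depends on each probe, so they give no order of transcript amount between genes. Gene models of 10 of the 15 tested genes overlap another model on the genome. Hoxa4, Hoxa5 and Hoxa6 overlap Hoxa3, Hoxb3 overlaps Hoxb4, Hoxd4 overlaps Hoxd3, and Hoxd10 overlaps Hoxd11. Hoxc9 overlaps Gm36878, Hoxd8 overlaps Gm38462 and Hoxb5 overlaps Hoxb5os. Without probe sequences a signal in an overlap cannot be assigned to 1 gene.

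**Figure D2:**
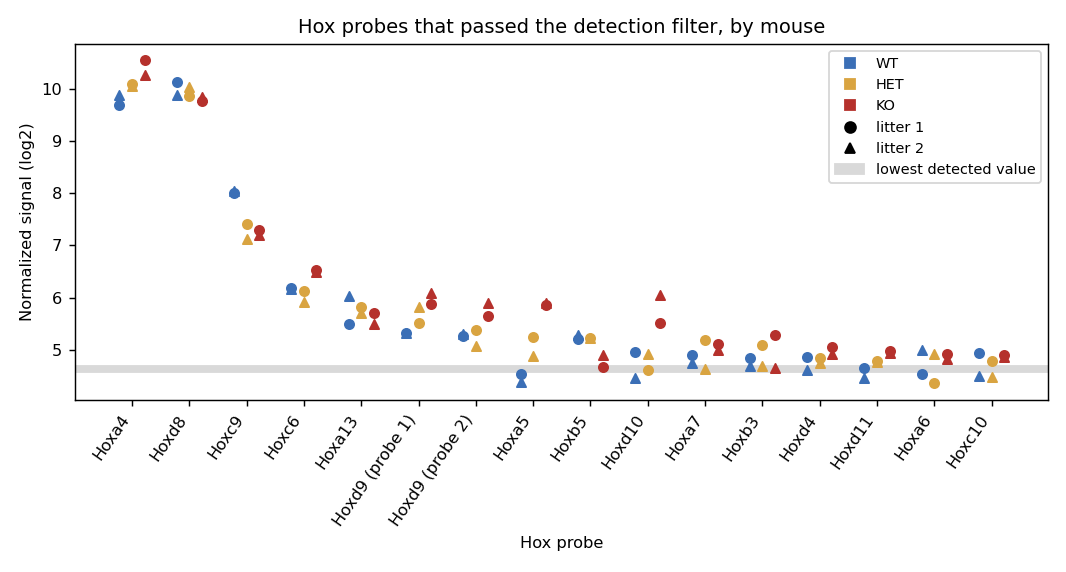
Log2 normalized signal of the 16 Hox probes that met the detection filter, ordered by mean level, with 1 point per mouse coloured by genotype and shaped by litter; the grey band spans the lowest detected value of the arrays. Hoxa4 and Hoxd8 lie near 10.08 and 9.92, while the WT points of Hoxa5 lie below the band and its KO points near 5.88.

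The first question was which Hox transcripts differ in testes without H3f3b. Hoxa4, Hoxa5, Hoxd9 and Hoxd10 were higher in KO and Hoxc9 was lower. The means differed by 1.54 to 2.10-fold, or at least 2.29-fold for Hoxa5, which neither WT array detected. The other 11 tested Hox probes did not pass. The 5 called probes were 31.2% of the 16 tested, with 4 higher and 1 lower, against 6.86% of all 20573 tested probes (2.24% higher and 4.63% lower; limma, Benjamini-Hochberg adjusted p under 0.05). The share among tested Hox probes is a description only, because 7 of the 16 met the filter without WT, through KO alone (3) or through HET and KO (4). When all 56 Hox probes were fitted with no filter, 2 passed (Hoxa5 and Hoxc9), against 1.17% of all 45281 probes. Over all 56 Hox probes, both KO arrays lay above both WT arrays for 13 (23.2%) and below for 10 (17.9%), near the 22.8% and 20.6% of all probes, and the median difference was 0.02 against 0.00 for all probes. As whole testis was measured, a change in the share of cells of a type and a change of RNA per cell cannot be told apart.

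Hoxa5, which in the mouse is known for patterning of the neck, lung and thoracic skeleton, went from undetected to detected. Its deposited signal was 96.4 (WT), 118.5 (HET) and 140.0 (KO) in litter 1 and 98.5 (WT), 102.5 (HET) and 141.4 (KO) in litter 2. The log2 normalized signal was 4.54 (WT), 5.25 (HET) and 5.85 (KO) in litter 1 and 4.39 (WT), 4.89 (HET) and 5.90 (KO) in litter 2. The genotypes did not overlap, and both HET mice lay between WT and KO. It met the detection filter through HET and KO. Since neither WT array detected it, the rise in KO is given as a bound of at least 2.29-fold (fitted log2 difference 1.42, SE 0.16, limma adjusted p = 0.00506). The call was lost without the KO mouse of litter 1 (adjusted p = 0.0548) and when the litter 2 WT mouse was left out (0.0628). The fitted difference was 0.48 with background left uncorrected and 0.67 with normexp at offset 50, and passed in both.

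Hoxd10 and Hoxd9 are neighbouring posterior genes known for hindlimb and lumbosacral patterning. Hoxd10 was at 4.96 (WT), 4.61 (HET) and 5.52 (KO) in litter 1 and 4.46 (WT), 4.92 (HET) and 6.04 (KO) in litter 2. Both KO mice lay above all others, and the WT and HET values overlapped. It rose 2.10-fold in KO (log2 difference 1.07, SE 0.22, limma adjusted p = 0.0295), with 0.56 in litter 1 and 1.59 in litter 2, and 1 of 2 WT arrays detected it. Hoxd10 met the detection filter through KO alone, the group in which it was highest. Its call was lost with no filter (adjusted p = 0.0911) and when any single WT or KO array was left out (0.0536 to 0.134). Without background correction the log2 difference was 0.37 and with normexp at offset 50 it was 0.51, both past the threshold.

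The brighter Hoxd9 probe was at 5.32 (WT), 5.51 (HET) and 5.88 (KO) in litter 1 and 5.33 (WT), 5.82 (HET) and 6.10 (KO) in litter 2. Here the 3 genotypes did not overlap, and the KO mice were highest. It rose 1.58-fold in KO (log2 difference 0.66, SE 0.15, limma adjusted p = 0.0384). The second Hoxd9 probe was at 5.26 (WT), 5.39 (HET) and 5.65 (KO) in litter 1 and 5.31 (WT), 5.07 (HET) and 5.89 (KO) in litter 2. Its difference of 0.49 (SE 0.16) had the same direction and did not pass (adjusted p = 0.0876), except with median scaling (0.61, adjusted p = 0.0444). The call of the brighter probe was lost without background correction (0.26, adjusted p = 0.0555) and without the filter on dim probes (adjusted p = 0.072). That call was also lost when any single WT or KO array was left out, with log2 differences of 0.549 to 0.765.

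Hoxa4 was detected strongly in every mouse. Its level was 9.68 (WT), 10.09 (HET) and 10.54 (KO) in litter 1 and 9.88 (WT), 10.04 (HET) and 10.26 (KO) in litter 2. The genotypes did not overlap and HET lay between WT and KO. The rise in KO was 1.54-fold (log2 difference 0.62, SE 0.15, limma adjusted p = 0.0426), with 0.86 in litter 1 and 0.38 in litter 2. This call lay close to the threshold and was lost without any single array, HET arrays included (adjusted p from 0.0624 without the HET mouse of litter 1 to 0.175 without the KO mouse of litter 1), and with no filter (adjusted p = 0.0724).

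Hoxc9, known in the mouse for thoracic identity in the skeleton and spinal cord, moved the other way. It was at 8.01 (WT), 7.40 (HET) and 7.30 (KO) in litter 1 and 8.03 (WT), 7.13 (HET) and 7.20 (KO) in litter 2. Both HET and both KO mice lay below both WT mice, and HET and KO overlapped. Hoxc9 fell 1.71-fold in KO (log2 difference -0.77, SE 0.14, limma adjusted p = 0.0232), with -0.70 in litter 1 and -0.84 in litter 2. Its call was kept with no filter (limma adjusted p = 0.0468). The call was lost when any single WT or KO array was left out, with log2 differences of -0.718 to -0.827.

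Leaving out single arrays changed the count of called Hox probes, and the count over all probes with it. Without the KO mouse of litter 1 or the WT mouse of litter 2, 0 Hox probes passed, against 25 and 27 of all 20573 probes. Without the WT mouse of litter 1 or the KO mouse of litter 2, 1 Hox probe passed, Hoxa5, against 172 and 222 of all probes. The directions of the 5 called probes were the same under each of the 15 alternatives. Leaving out 1 array could hardly reverse them, because the KO and WT arrays did not overlap for these probes. With litter as a replicate block, the same counts of 4 higher and 1 lower Hox probes passed.

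**Figure D3:**
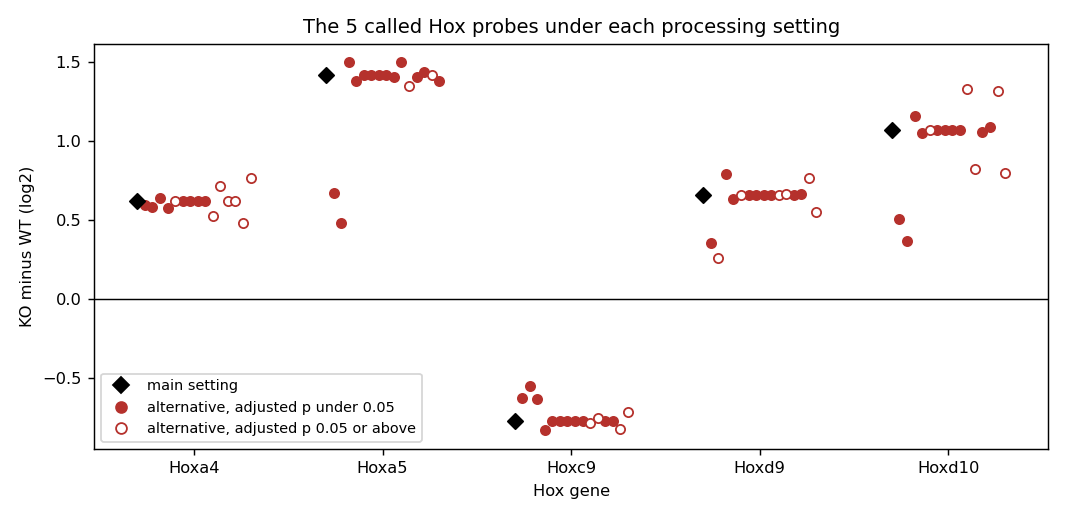
KO minus WT difference (log2) of the 5 called Hox probes under the main setting (black diamond) and 15 alternatives (circles, filled where the adjusted p was under 0.05). Directions do not change, the sizes of Hoxa5, Hoxd9 and Hoxd10 fall without background correction, and the open circles are mainly fits without 1 array.

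Among the tested Hox probes that did not pass, those with the largest differences were Hoxb5, Hoxd11 and Hoxc6, after the second Hoxd9 probe. Hoxb5 was at 5.21 (WT), 5.22 (HET) and 4.68 (KO) in litter 1 and 5.28 (WT), 5.23 (HET) and 4.90 (KO) in litter 2. KO lay below the other genotypes, with a difference of -0.45 (SE 0.14, limma adjusted p = 0.0767). Hoxd11, which neither WT array detected, was at 4.66 (WT), 4.79 (HET) and 4.98 (KO) in litter 1 and 4.47 (WT), 4.78 (HET) and 4.94 (KO) in litter 2. The genotypes did not overlap, and the KO mean lay 1.21-fold above the lowest detected value of the WT arrays. The KO against WT difference of Hoxd11 did not pass (limma adjusted p = 0.0995). Hoxc6 was at 6.19 (WT), 6.12 (HET) and 6.54 (KO) in litter 1 and 6.16 (WT), 5.92 (HET) and 6.50 (KO) in litter 2. KO was highest and HET lowest, and KO differed from WT by 0.34 (SE 0.14, limma adjusted p = 0.144). Hoxd8, bright in all mice, was at 10.13 (WT), 9.86 (HET) and 9.77 (KO) in litter 1 and 9.88 (WT), 10.02 (HET) and 9.85 (KO) in litter 2. WT and HET overlapped and both KO values lay just below them, with a difference of -0.20 and a 95% interval of -0.53 to 0.13. Hoxa13, known for patterning of the digits and the urogenital outlet, was at 5.50 (WT), 5.82 (HET) and 5.71 (KO) in litter 1 and 6.02 (WT), 5.71 (HET) and 5.49 (KO) in litter 2. Its 3 genotypes overlapped, and the interval of the difference was -0.57 to 0.26. Hoxa6, Hoxa7, Hoxb3, Hoxc10 and Hoxd4 differed by 0.11 to 0.25, with adjusted p from 0.291 to 0.773.

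**Figure D4:**
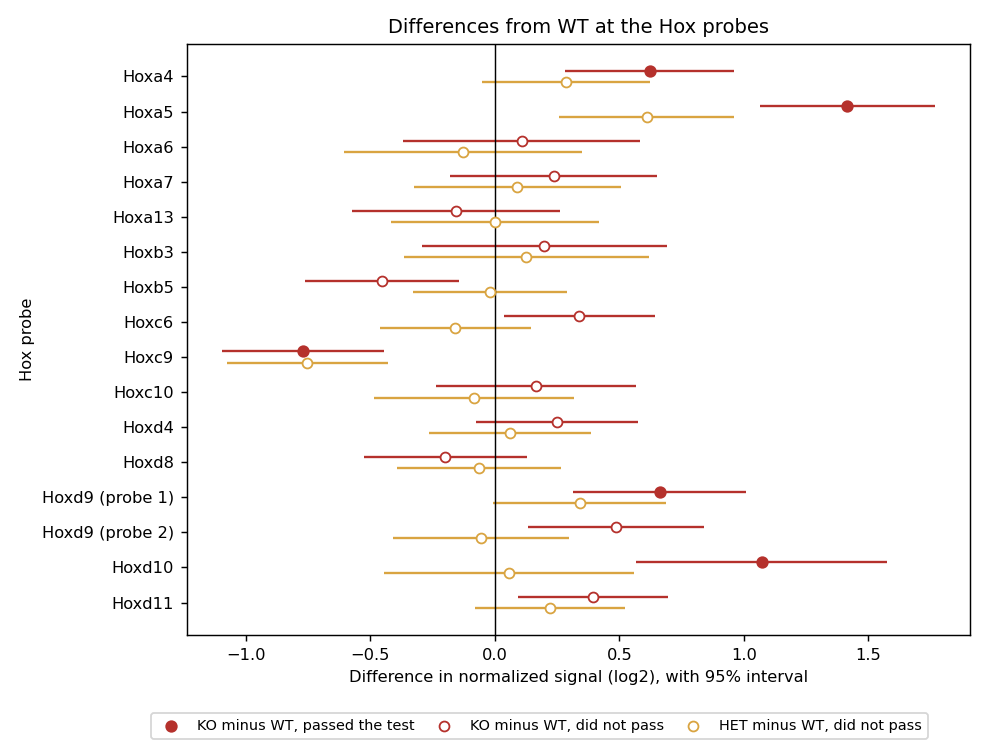
Difference from WT in log2 normalized signal at the 16 tested Hox probes for KO (red) and HET (yellow), with unadjusted 95% intervals from the fit; filled points passed the adjusted threshold. Filled points are the KO differences of Hoxa4 (0.62), Hoxa5 (1.42), Hoxc9 (-0.77), Hoxd9 (0.66) and Hoxd10 (1.07), and all HET points are open.

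The HET testes were set against WT to see the effect of losing 1 allele on Hox transcripts. None of the 16 Hox probes passed (limma, 0 called, smallest adjusted p among them 0.425), against 0% of all probes. At an unadjusted p under 0.05 there were 2 Hox probes, Hoxc9 and Hoxa5, and 8.85% of all tested probes. The HET difference was -0.75 for Hoxc9 (95% interval -1.08 to -0.43). For Hoxa5, which neither WT array detected, the HET mean lay 1.31-fold above the lowest detected value of the WT arrays. The HET difference of Hoxa5 did not pass (limma adjusted p = 0.465). For Hoxd10 the HET difference was 0.06 (-0.45 to 0.56). These values share the WT arrays with the comparison of KO with WT. Over all 56 Hox probes, both HET arrays lay above both WT arrays for 12 (21.4%, against 18.0% of all probes) and below for 4 (7.14%, against 17.3%).

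Setting KO against HET gives the effect of losing the remaining allele. None of the 16 Hox probes passed (limma, 0 called), against 0.112% of all tested probes. At an unadjusted p under 0.05 there were 5 Hox probes and 19.2% of all tested probes. This count is a description only, because 3 of the 16, Hoxd10 among them, met the filter through KO alone. Over all 56 Hox probes the median difference of KO from HET was 0.03, against 0.00 for all probes. The smallest adjusted p-values were those of Hoxa5 (log2 difference 0.81, SE 0.16, adjusted p = 0.0801) and Hoxd10 (1.01, SE 0.22, adjusted p = 0.0905), both higher in KO in both litters. These 2 passed with an intensity trend, with median scaling and with normexp at offset 50. Hoxc9 differed by -0.02 between KO and HET, with a 95% interval of -0.34 to 0.31.

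Partners and regulators of Hox genes were read from lists, each gene at its brightest probe. At most 1 gene of each list passed, which is to be read against the 6.86% of all tested probes called in KO against WT. Of the TALE cofactors, which bind DNA together with Hox proteins, 7 of 9 were tested and 0 passed in KO against WT (median difference -0.01, against 0.04 over all tested probes). Pbx4, the member known from testis, was at 10.07 in WT and 10.14 in KO. Of 30 Polycomb genes 22 were tested, with a median of 0.17, and 1 rose: Cbx8, a chromobox subunit of PRC1, from 4.63 ± 0.12 to 5.39 ± 0.09 (log2 difference 0.77, limma adjusted p = 0.0256), with 1 of 2 WT arrays detecting it. Ezh2, the H3K27 methyltransferase, differed by -0.06 and Eed by -0.11, and Suz12 by 0.46 (adjusted p = 0.0726). Bmi1 was lower by a similar amount (-0.50, limma adjusted p = 0.0515, and 0.0468 with litter as a replicate block). Of 18 Trithorax and activator genes 16 were tested, with a median of 0.16, and 1 fell: the brightest probe of the H3K27 demethylase gene Kdm6b (deposited as 1700064E03Rik), by 0.55 (adjusted p = 0.0402), while its other 2 probes had the opposite sign. Kmt2a, an H3K4 methyltransferase known to maintain Hox expression, differed by 0.38 (adjusted p = 0.128). Of 20 upstream regulators 8 were tested and 0 passed. The nearest was Rxra (-0.76, limma adjusted p = 0.0546, and 0.0471 with litter as a replicate block). The caudal genes Cdx1, Cdx2 and Cdx4 were among the 12 that were not tested.

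Of 38 genes beside the clusters 31 were tested, with a median difference of 0.07, and 1 fell, against 4.63% of all tested probes: Nfe2, a blood cell transcription factor gene near Hoxc (-0.70, limma adjusted p = 0.0459). Within the clusters, 6 further probes were deposited under other symbols. One of them, 1700064D17Rik (Hoxd3os1 in RefSeq), a noncoding transcript of the Hoxd cluster, was detected on all 6 arrays, at 8.54 (WT), 8.71 (HET) and 8.50 (KO) in litter 1 and 8.58 (WT), 8.53 (HET) and 8.21 (KO) in litter 2. Its difference of -0.20 (SE 0.15) did not pass (adjusted p = 0.413). The other 5 were detected on no array, including a second Hoxd3os1 probe (deposited as 1700109F18Rik, 4.17 to 4.27), which thus disagreed with the first, and a Hoxd11 probe deposited as E230017H14Rik.

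Sertoli cell markers rose with the KO genotype, and of each other somatic list at most 2 tested markers passed. All 10 tested Sertoli cell markers (of 12, without Amh and Gata4) had a positive difference, with a median of 0.61, and 6 rose, against 2.24% of all tested probes, among them Inha (0.77), Clu (0.63) and Wt1 (0.62). Their summed normalized signal was 19741 to 20392 in WT, 22664 to 23452 in HET and 29788 to 30939 in KO. Of 8 Leydig cell markers 6 were tested (not Hsd3b1 and Hsd3b6), and 1 rose, Cyp17a1 (0.76), while Star differed by -0.07. The Leydig sum, most of it the signal of Cyp17a1 and Insl3 (12.30 and 12.28 in WT, log2), was 10127 to 11005 in WT, 8497 to 11609 in HET and 15443 to 16357 in KO. Of 10 fibroblast markers 8 were tested (not Col3a1 and Dpt), and 1 rose, Pdgfra (0.95, though its second probe pointed down). Of these 8, 5 had a positive difference, and Lum (-0.49), Col1a1 (-0.39) and Col1a2 (-0.37) had a negative one. The fibroblast sum was 1621 to 1711 in WT, 1451 to 1795 in HET and 2177 to 2278 in KO, and most of it was Dcn (10.23 in WT, log2), which did not pass (difference 0.48, adjusted p = 0.0861). Their part in the Hox differences was not tested.

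Of 18 epididymal and duct markers 4 were tested and 0 passed, and Lcn5, Lcn8, Crisp1, Adam7 and Rnase9 did not meet the filter. Of 7 adipocyte markers 4 were tested and 2 fell, against 4.63% of all tested probes: Adipoq (-0.75) and Retn, which neither KO array detected. The other tested markers did not pass: Cfd differed by -0.99 with a wide spread (SD 1.47 in KO), and Lep by 0.13. The adipocyte sum was 688 to 802 in WT, 643 to 773 in HET and 387 to 531 in KO, and its part in the fall of Hoxc9 was not tested. Of 8 macrophage markers 8 were tested and 1 rose, Mrc1 (0.58), against 2.24% of all tested probes. Of these 8, 6 had a positive difference, and C1qb (-0.23) and C1qa (-0.02) had a negative one. The macrophage sum, in which C1qb, Lyz2 and Mrc1 were the brightest, was 878 to 892 in WT, 865 to 1016 in HET and 997 to 1188 in KO. None of 6 peritubular, 7 endothelial and 9 germ cell markers tested passed (0 called by limma in each, of 8, 8 and 12). The germ cell sum was 76408 to 77435 in WT, 74250 to 74610 in HET and 69638 to 74638 in KO. Most of it was the signal of Prm1 and Tnp1, which differed by -0.05 and -0.10 in KO against WT.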

How the data were processed

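Per the file headers, each probe of the deposited table had a linear bead intensity (average signal) on 6 Illumina arrays, 1 per mouse. A detection p-value stood beside each signal, per the file headers. GenomeStudio is the tool that the submitters' processing notes name. The authors' second table held the same intensity values scaled to 1 mean per array. Here, normexp background correction used controls inferred from those detection p-values (limma 3.58.1 neqc with offset 16, R 4.3.3), then quantile normalization and log2. The 20573 probes that some genotype detected on both of its arrays (p under 0.05) entered 1 limma fit of the 6 arrays on genotype (lmFit and eBayes, two-sided, 3 residual and 6.23 prior degrees of freedom). The fit was also run on simulated data with independent noise and known shifts. As these held no litter effect and no background floor, they say nothing of either. Benjamini-Hochberg adjustment ran over all tested probes. Where no array of a group detected a probe, the fold between means is taken against the higher of its own value and the lowest detected value. Such a fold holds no sampling error.

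The members and gene lists were chosen with earlier results of these data known. Called Hox probes are given for all arrays, and of the others those detected on all arrays and the 4 with the largest KO against WT difference; list genes are named where called, up to 4 a list. Other genes named here were picked with their values in view. Replicate numbers mark shared litters, per the labels, and so pair the mice. Litter differences correlated by 0.0909 (WT and HET), 0.134 (WT and KO) and 0.168 (HET and KO) across probes. P-values rest on the spread between the 2 mice of each genotype, pooled over the 3 genotypes and drawn toward that of all tested probes. The files name no genome build, and coordinates are those of the RefSeq promoter windows.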

Additional observations from a re-analysis of the deposited data

How the results depend on the processing

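The count of Hox probes called in KO against WT was 5 with the main settings and 2 with no filter on dim probes, and ranged from 0 to 4 over the fits without 1 array, in which a lone mouse is assumed to vary like the other groups. In KO against HET, 0 Hox probes were called with the main settings and 2 with normexp at offset 50, 2 with median scaling and 2 with an intensity trend; in HET against WT the count was 0 under all 15 alternatives. Counting a probe as detected on at least 1 array gave 16 Hox probes in WT, 22 in HET and 21 in KO, against 9, 12 and 16 on both arrays, and a detection p under 0.01 gave 8, 8 and 11. Without 1 array, differences in KO against WT that did not pass changed sign for Hoxa13 (range -0.42 to 0.11), Hoxa6 (-0.12 to 0.34), Hoxb3 (-0.12 to 0.51) and Hoxc10 (-0.057 to 0.39). Over all probes, 1412 were called in KO against WT, against 2989 with normexp at offset 50, 2857 without background correction, 2784 with an intensity trend, 528 with no filter, and 25 to 974 without 1 array. Of the called probes 32.6% were higher in KO, against 58.4% with median scaling, 44.5% when background was left uncorrected, 43.2% with normexp at offset 50, 23.2% with cyclic loess and 14.9% to 28.0% without 1 array (lowest without the KO mouse of litter 2). The median difference over all tested probes was 0.04, and 0.12 with median scaling. With litter as a replicate block no Hox call changed in any of the 3 comparisons. Signals within a few units of background limit what can be said of most Hox probes, and the causes of these changes were not tested.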
